A study of Mus musculus with 4 samples.

Results

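Early granulocyte-monocyte progenitors were picked out of single-cell RNA profiles of mouse bone marrow by their own transcripts. A cell was a member if it had at least 3070 UMIs (unique molecular identifiers, each standing for 1 captured RNA molecule) and at least 1 UMI of both Cebpa and Ccl9. It also had to hold no UMI of Cebpe, Dntt, Ms4a2 or Pf4, and UMIs of fewer than 3 of the 7 monocyte genes F13a1, Ly86, Ms4a6c, Ccr2, Irf8, Csf1r and Tifab. The rule found 469 of 11764 cells, 250 in the PBS control and 219 in the B-ALL environment. Because the members were selected on measured counts, the levels of these genes, and every comparison of members with other cells, are given as descriptions.

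The hosts were wild-type CD45.1 mice. In the B-ALL environment they had been given 150000 tumor cells through the tail vein, taken from a lymph node of 1 leukemic CD45.2 mouse (LN768) with 1 intact copy each of Ebf1 and Pax5, and in the PBS control they had been given PBS (buffered saline). B-ALL is B-cell acute lymphoblastic leukemia. In both groups KIT+ Lin- CD45.2- CD45.1+ marrow cells, which are cells of the host, were sorted after 3 weeks and measured with the Chromium 3' v3 kit, and neither the ages nor the number of host mice are given in the sources used here. The labels name 2 samples per group, but a cell carries only the prefix of its group (the prefix tm was taken to mean the tumor environment). Each group was therefore treated as 1 sample, no test was possible, and intervals cover counting error only. The B-ALL environment and the library or libraries that held it cannot be told apart. All tumor cells came from the same donor mouse, so the results are for that leukemia.

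Granulocyte-monocyte progenitors give rise to neutrophils and monocytes. The transcription factor C/EBPα, made from Cebpa, is needed for entry into this branch. Cells that go on to neutrophils then switch on Cebpe and fill their primary granules with enzymes such as myeloperoxidase (Mpo) and neutrophil elastase (Elane), while those that go on to monocytes switch on Irf8 and Csf1r. Ccl9 encodes a chemokine made by myeloid cells, and Cxcr2 encodes a receptor for chemokines that draw neutrophils.

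The 250 control members held 2611318 UMIs (4052 to 31399 per cell, median 9494) and the 219 members of the B-ALL environment 2508323 UMIs (3180 to 29059 per cell, median 10246). Mitochondrially encoded genes made up 3.71% of the UMIs of control members, against 5.81% in the B-ALL environment. Across all cells there were 18 barcodes present in both groups, 2 of which belonged to members. No doublets were called or removed here, and no member had more than 1% of its UMIs in globin genes or in Igkc.

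By construction each member carried Cebpa and Ccl9, and most carried little of either. In control members Cebpa ran from 0.410 to 7.40 per 10000 UMIs with a median of 1.57, and in the B-ALL environment from 0.344 to 8.81 with a median of 1.48. Ccl9 ran from 0.460 to 11.6 with a median of 2.60 in the control and from 0.344 to 12.4 with a median of 1.93 in the B-ALL environment, so the ranges of the groups overlapped widely for both genes. A single UMI of Cebpa put 134 control members and 118 members of the B-ALL environment inside the rule. A single UMI of Ccl9 did so for 79 and 89.

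Cxcr2, the marker that the rule did not use, was sparse. A UMI of it was found in 18.4% of control members, against 25.6% in the B-ALL environment. After every cell was thinned to 3070 UMIs the shares were 5.20% and 9.13%, against 0.519% and 1.11% in erythroid cells (cells with UMIs of Klf1 and Ermap, median depths 12584 and 21487 UMIs), which should lack the gene. Its level in members was nevertheless above that in all other cells of the same group, by 1.28 on the log2 scale in the control against 2.20 in the B-ALL environment. In neutrophil progenitors the thinned shares were 4.30% and 3.15%, and in monocyte progenitors 3.30% and 3.34%, so the control members stood close to both classes. Since the rule itself required Cebpa and Ccl9, Cxcr2 is the 1 marker that bears on the label, and it was seen in a minority of the cells.

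Other features of the members described a mixed set of cells. Cd34, a surface protein of progenitors, had a UMI in 79.6% of thinned control members and 78.1% of thinned members of the B-ALL environment, and Ms4a3, a membrane protein of granulocyte-monocyte progenitors, in 36.0% and 31.1% (52.8% and 48.4% unthinned). In erythroid cells the thinned shares were 5.19% and 4.44% for Cd34, and 7.26% and 1.11% for Ms4a3, below those of the members. Ms4a3 had higher shares in neutrophil progenitors (69.1% and 78.7%) and monocyte progenitors (44.1% and 44.2%) than in members. On the deposited UMAP, a flat map that places like cells together, 16.3% of the 30 nearest neighbours of control members were themselves members, and 18.4% for the B-ALL environment, against 3.99% of all cells. Neutrophil progenitors made up 6.36% and 8.08% of these neighbours, against 5.32% of all cells, and monocyte progenitors 12.7% and 14.3%, against 13.6%, so the latter were near their share of all cells. Members thus lay together more often than their share of all cells, but most of their neighbours were cells outside the rule.

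**Figure D1:**
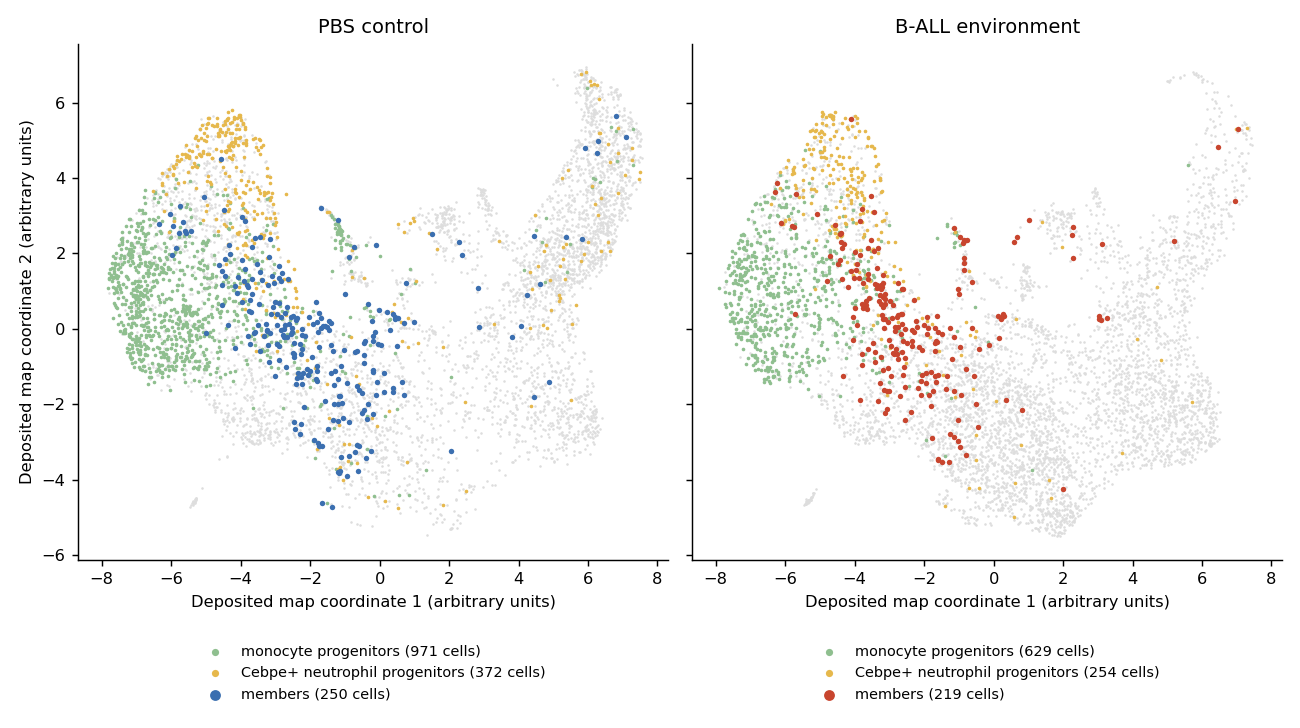
The deposited UMAP (2 coordinates without unit), with 1 panel per group, each point 1 cell and the members drawn over the monocyte progenitors, the Cebpe-positive neutrophil progenitors and the remaining cells in grey. Many members of both groups lie beside the monocyte and neutrophil progenitors and among the grey cells below them, and some are scattered elsewhere.

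Members at the edges of the rule and cells just outside it differed in granule and stem cell genes. Members with no UMI of the 7 monocyte genes (47 control, 49 B-ALL environment) had Mpo at 1061 and 1003 CPM (UMIs scaled to a fixed total per group) and Gata2, a transcription factor of stem cells and mast cells, at 226 and 206 CPM. Members with 2 of these genes (100 and 75), just inside the limit, had Mpo at 2721 and 2149 CPM and Gata2 at 83.7 and 94 CPM. Cells just outside it with 3 (77 and 63) had Mpo at 3306 and 3131 CPM and Gata2 at 61.7 and 87.2 CPM. From 0 over 2 to 3 monocyte genes Mpo was thus higher at each step, and Gata2 lower, in both groups. Cells that met the rule but for having no Ccl9 UMI (237 and 250) had Mpo at 505 and 501 CPM and Gata2 at 255 and 248 CPM. These cells had the lowest Mpo and the highest Gata2 of the sets compared.

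The members differed from Cebpe-positive neutrophil progenitors (372 control cells, 254 of the B-ALL environment) in both directions. This class is defined by at least 1 UMI of Cebpe, and on the map some of its cells lie away from the main neutrophil arm. Of 10556 genes, 627 (5.94%) were over 1.5-fold higher in members in both groups and 446 (4.23%) over 1.5-fold lower. Of 22 stem and multipotent genes tested, 14 were past that fold and higher in members, and none lower. Hlf, a transcription factor of hematopoietic stem cells, was higher by 1.56 in the control against 1.37 in the B-ALL environment on the log2 scale. Hmga2, a chromatin protein known from fetal stem cells, was higher by 1.40 and 2.45. Of 20 primary granule genes 16 were lower. Elane was lower by 3.73 and 3.18 on that scale, and Mpo by 1.51 and 1.63.

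Monocyte progenitors (971 and 629 cells with at least 3 of the 7 monocyte genes) differed from members more widely. Here 1006 of 11359 genes (8.86%) were over 1.5-fold higher in members in both groups and 544 (4.79%) over 1.5-fold lower. Of 23 stem and multipotent genes tested, 17 were past that fold and higher in members, among them Mecom by 2.20 and 2.02 on the log2 scale. Cpa3, the mast cell carboxypeptidase, was higher by 3.35 and 3.62. Genes of monocytes outside the rule were lower for 14 of 17, and Ly6c2, a surface protein of monocytes, was lower by 4.61 and 5.24. The primary granule list was lower for 12 of 20 and higher for 1. Summed over that list, members of the control and the B-ALL environment had 16180 and 15264 CPM, monocyte progenitors 27208 and 24276 CPM, and neutrophil progenitors 40405 and 40983 CPM. Members therefore had the lowest granule level of these 3 classes in both groups.

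**Figure D2:**
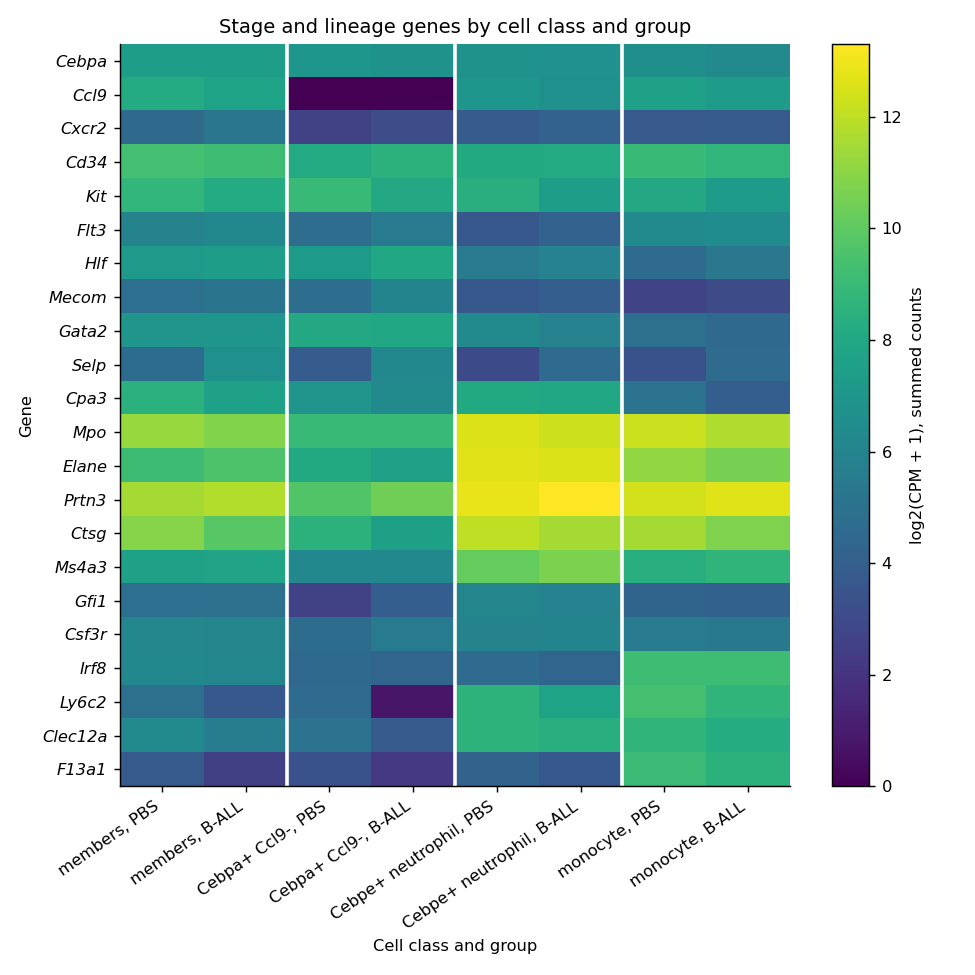
Levels of selected genes (log2 of CPM + 1, colour) in members, neutrophil progenitors, monocyte progenitors and Cebpa-positive cells without Ccl9, for each group. Elane is lower, and Hlf higher, in members than in neutrophil progenitors of both groups.

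Against all other cells, 515 of 13536 genes (3.80%) were over 1.5-fold higher in members in both groups and 515 (3.80%) over 1.5-fold lower. Cebpa and Ccl9 were among the highest folds by the choice of the cells. Among the other genes, Socs3, an inhibitor of cytokine receptor signalling, stood at 1.91 in the control against 1.30 in the B-ALL environment on the log2 scale. Selp, which encodes the adhesion protein P-selectin, stood at 1.26 and 1.54, and Ffar2, a receptor for short-chain fatty acids, at 1.07 and 1.41. Ighm, the immunoglobulin heavy chain of early B cells, was lower by 1.42 and 2.42. Car1, an erythroid carbonic anhydrase, was lower by 2.26 and 0.98, and 1 cell held 30.1% of its UMIs in control members against 54.4% in the B-ALL members.

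The share of members among cells with at least 3070 UMIs was 4.25% in the control (95% exact Clopper-Pearson interval 3.75% to 4.80%) and 3.85% in the B-ALL environment (3.36% to 4.38%). The ratio was 0.905 (0.758 to 1.08), so a difference was not detectable at this number of cells. With at least 2 Ccl9 UMIs required, the ratio was 0.786 (0.627 to 0.984). Over the same denominator neutrophil progenitors had a ratio of 0.706 (0.604 to 0.824) and monocyte progenitors one of 0.669 (0.610 to 0.735). Cebpa-positive cells without Ccl9 had one of 1.09 (0.916 to 1.30). All Cebpa-positive cells together had a ratio of 0.754 (0.718 to 0.792). Klf1 and Ermap erythroid cells were 13.1% of control cells and 1.58% of the B-ALL environment, and a smaller share of 1 class raises that of the others.

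The share depended on depth. With every cell thinned to 3070 UMIs and the rule applied again, members were 3.13% of control cells (184) and 2.11% of the B-ALL environment (120), and the ratio became 0.674 (0.537 to 0.846). Only 68 of the 250 control members (27.2%) and 58 of the 219 of the B-ALL environment (26.5%) met the rule both before and after thinning. They made up 37.0% and 48.3% of the thinned sets. Among cells of at least 10000 UMIs the ratio was 1.06 (0.823 to 1.37). Membership of a single cell is thus uncertain, because it can rest on 1 UMI gained or missed.

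**Figure D3:**
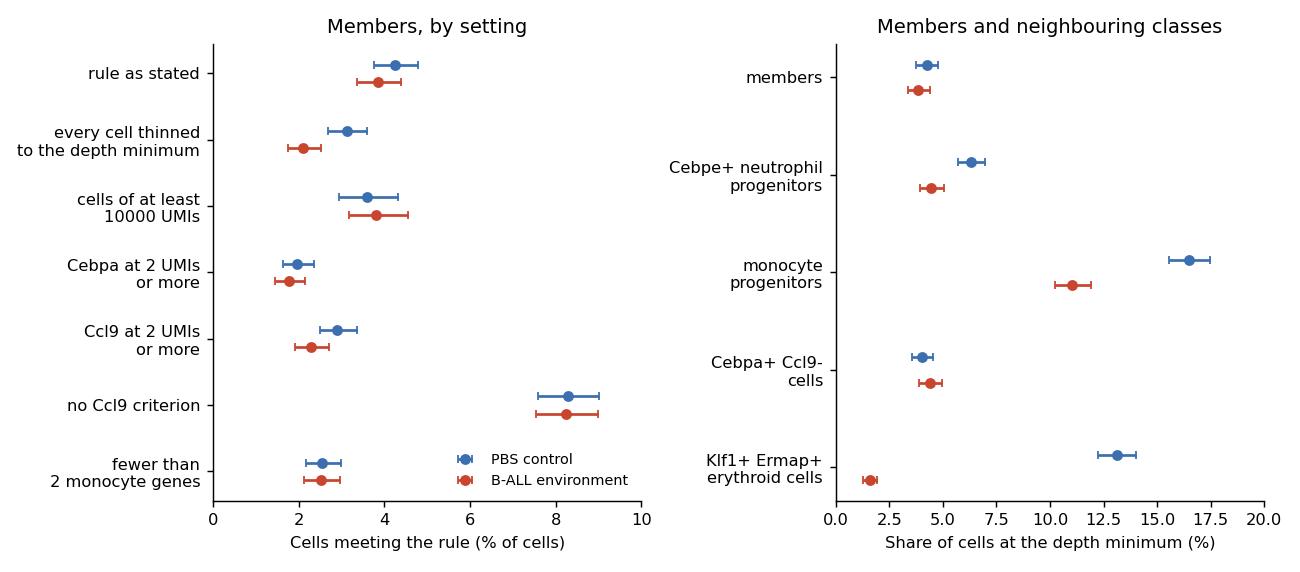
Share of members (percent of cells with at least 3070 UMIs) in each group as reported and under other thresholds (left), and of members and neighbouring classes (right), as points with exact 95% intervals. The control and the B-ALL environment stand at 4.25% and 3.85% as reported, and at 3.13% and 2.11% after thinning.

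Within the members, the B-ALL environment was compared with the PBS control over UMIs summed per group and scaled by TMM to CPM. Of 10577 genes tested, 891 (8.42%) were over 1.5-fold higher in the B-ALL environment and 628 (5.94%) over 1.5-fold lower, which is the background for the counts of called genes that follow. The 95% interval lay clear of no difference for 477 of the former and 357 of the latter. The median log2 fold over all genes was 0.01. Folds are on the log2 scale, B-ALL environment over PBS control. Those of the neutrophil and monocyte progenitors are set beside them where named, and differences between classes were not tested.

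Feedback inhibitors of cytokine receptors were higher in members of the B-ALL environment. Most of the list are genes that JAK-STAT signalling switches on and whose proteins then dampen it. Of 12 tested genes of this list, which also holds the survival kinase Pim1, 6 were called higher and 1 lower, with a median of 0.76. Socs3 had 23 UMIs in the control against 118 in the B-ALL environment, or 8.92 and 46.4 CPM, a fold of 2.38 (1.73 to 3.09). Cish, a close relative of Socs3, had 2.72 and 21.6 CPM, a fold of 2.99 (1.86 to 4.37). Socs2 had no UMI in control members against 44 in the B-ALL environment, which is at least 14.9-fold higher when the control is set to the floor of 3 UMIs per group. Socs1, the inhibitor best known for interferon signalling, had a fold of 1.24 (0.41 to 2.13).

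The kinases Pim1 and Pim2, survival factors induced by the same receptors, were higher, and the call of Pim1 is among those counted above. Pim1 ran from 0 to 40.2 per 10000 UMIs with a median of 4.10 in control members, and from 0.777 to 43.9 with a median of 11.7 in the B-ALL environment. The ranges overlapped across nearly their whole length while the middle of the distribution was higher. The summed level was 499 and 1181 CPM, a fold of 1.24 (1.15 to 1.34), against 1.79 in neutrophil and 1.77 in monocyte progenitors. Pim2 had 15 and 99 UMIs, a fold of 2.74 (1.95 to 3.63), and had the highest fold among genes whose mean level reached 20 CPM. Dusp6, a phosphatase that acts on the kinase ERK, was the list's exception, with 37 and 4 UMIs and a fold of -3.19 (-5.14 to -1.71).

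Genes known to respond to IL-6, G-CSF and STAT3 overlap this list. Of 18 tested, 10 were called higher and none lower, with a median of 0.63. Stat3 itself had 97.8 and 148 CPM, a fold of 0.60 (0.37 to 0.84), which was 0.57 and no longer called among members of at least 10000 UMIs. Type I interferon genes did not share this pattern over all members, with 1 of 18 called higher, 4 lower and a median of -0.15. Their sum was nevertheless 1364 CPM in control members and 1585 CPM in the B-ALL environment. Among members of at least 10000 UMIs, 4 of 13 were called higher and none lower, with a median of 0.21. Among members with at least 6 other members as near neighbours, 2 of 12 were called higher and none lower, with a median of 0.47. The direction of this list thus depended on the members and on the measure used. Ifit1, an interferon-induced RNA-binding protein, had 28 and 10 UMIs, a fold of -1.47 (-2.67 to -0.38) that turned to 0.32 among members of at least 10000 UMIs. The TNF and NF-kB list had 4 of 17 called higher and 1 lower. Ier3, an early response gene of that pathway, had 41.1 and 94 CPM, a fold of 1.19 (0.86 to 1.54).

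The promoter stretches of 3 genes are shown because they are those, among the 12 highest folds, in which a script found the letters TTCNNNGAA, a form of the site that STAT proteins bind. The motif is its own reverse complement, so both strands are covered, and the window searched was the 250 bases before the start of each gene. Sequences are from RefSeq on GRCm38.p6, written 5′ to 3′ on the strand of the gene, with the motif in capitals. Ltb lies on the plus strand at chr17:35194280-35194399, Socs3 on the minus strand at chr11:117969456-117969575 and Serpina3g on the plus strand at chr12:104236027-104236146.
Ltb: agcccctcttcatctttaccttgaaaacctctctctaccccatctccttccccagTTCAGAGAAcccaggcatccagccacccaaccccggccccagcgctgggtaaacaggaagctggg
Socs3: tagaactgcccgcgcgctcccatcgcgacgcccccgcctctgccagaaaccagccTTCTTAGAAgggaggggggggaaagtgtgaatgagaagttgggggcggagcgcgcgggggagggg
Serpina3g: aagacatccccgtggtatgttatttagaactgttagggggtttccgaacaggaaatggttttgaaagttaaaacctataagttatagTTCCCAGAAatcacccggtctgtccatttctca
The motif lay 172 to 164 bases before the start in Ltb, 154 to 146 in Socs3 and 33 to 25 in Serpina3g. Over all 27025 genes with a listed promoter (32851 promoters), 8.13% held these letters, where a gene counted if any of its promoters did. Among genes tested in members 7.17% of the 8381 matched genes held them. They were held by 8.18% of the 660 matched genes called higher, by 3 of the 12 highest folds, and by 7.26% of the 427 matched genes called lower. Of the 18 genes of the IL-6, G-CSF and STAT3 list, 17 matched a promoter and 3 held the motif (17.6%). The genes called higher thus differed from those tested by about 1 percentage point, and a match is not a measured binding site.

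The proteins of those 3 genes have different roles. Ltb encodes lymphotoxin beta, a membrane cytokine, and had 23 UMIs in control members against 136 in the B-ALL environment, a fold of 2.58 (1.94 to 3.29). Serpina3g encodes a protease inhibitor of hematopoietic cells. It had 88.1 and 346 CPM, a fold of 1.98 (1.76 to 2.19).

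Of 19 receptors for myeloid cytokines tested, 5 were called higher and 1 lower, with a median of 0.20. Csf2rb, the signalling chain shared by the receptors for IL-3, GM-CSF and IL-5, had 108 and 308 UMIs, or 41.9 and 121 CPM, a fold of 1.53 (1.21 to 1.86). Csf2rb2, its IL-3 specific copy, had 6 and 44 UMIs, a fold of 2.89 (1.66 to 4.42), and because the sequences of this pair are much alike their reads may be shared. The binding chains that pair with them were not called, with Il3ra at 49.3 and 49.2 CPM and Csf2ra, the GM-CSF binding chain, at a fold of -0.38 (-0.79 to 0.02).

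Il1r1, the receptor of IL-1, had 21 and 81 UMIs in members, a fold of 1.97 (1.26 to 2.73), against 0.17 in neutrophil and 0.62 in monocyte progenitors. Il4ra, a chain of the IL-4 receptor, had 15.9 and 39.7 CPM, a fold of 1.32 (0.78 to 1.88). Csf3r, the G-CSF receptor, had 182 and 166 UMIs, a fold of -0.11 (-0.42 to 0.20). Kit, the stem cell factor receptor by which the cells were sorted, was the receptor called lower. It ran from 0 to 22.4 per 10000 UMIs with a median of 3.84 in the control, and from 0 to 11.4 with a median of 2.53 in the B-ALL environment. Its fold was -0.61 (-0.74 to -0.47), and that of neutrophil progenitors was -0.93. The call is marginal, since with plain library totals the fold was -0.57 and among members of at least 10000 UMIs it was -0.48, both short of 1.5-fold.

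The list of myeloid transcription factors had 7 of 23 called higher and none lower, with a median of 0.30. Cebpa, Spi1 and Gfi1 were not among those called. Cebpa had 175 and 171 CPM, but each member had to carry it. Spi1, which encodes the myeloid factor PU.1, had 278 and 271 CPM, a fold of -0.04 (-0.19 to 0.12), and Gfi1, a repressor needed for neutrophils, one of 0.08 (-0.41 to 0.57). Cebpb, the C/EBP factor of emergency granulopoiesis, had 67.5 and 118 CPM, a fold of 0.81 (0.54 to 1.09), or 0.54 in members with at least 6 other members as near neighbours. Mycn, a proto-oncogene of stem cells, had 9.31 and 39.3 CPM, a fold of 2.08 (1.42 to 2.79), and Id1, an inhibitor of basic helix-loop-helix factors, a fold of 1.76 (1.04 to 2.54). Myc, a driver of cell growth, had 248 and 372 CPM, a fold of 0.59 (0.44 to 0.73), which DESeq2 size factors put at 0.58, just short of 1.5-fold.

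Chemokine genes and their receptors had 4 of 10 called higher and none lower. The counts depended on the setting. Among members of at least 10000 UMIs 1 of 6 was called higher and none lower. With fewer than 2 monocyte genes 2 of 7 were called higher and 2 lower. With at least 6 other members as near neighbours none of 7 was called higher and 1 lower. Ccl9, which the rule used, had 287 and 211 CPM. Cxcr2 had 59 and 91 UMIs, or 22.9 and 35.8 CPM, a fold of 0.65 (0.16 to 1.14), against 0.32 in neutrophil and 0.08 in monocyte progenitors. Cxcr4, which holds progenitors in the marrow, had 46.6 and 71.6 CPM, a fold of 0.62 (0.28 to 0.97). Both calls were marginal. As a mean over members the fold of Cxcr2 was 0.46, and among members with at least 6 other members as near neighbours on the map that of Cxcr4 was 0.19, neither past 1.5-fold.

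Primary granule genes did not move together. Of 20 tested, 11 had a positive fold, none was called higher and 2 were called lower, with a median of 0.06. The direction depended on the members taken. With fewer than 2 monocyte genes 7 were positive and 13 negative, with a median of -0.17. With at least 6 other members as near neighbours 5 were positive and 15 negative, with a median of -0.22. Without the deepest 5% of members 11 were positive and 9 negative, with a median of 0.14. The granule protease cathepsin G (Ctsg) ran from 0 to 144 per 10000 UMIs with a median of 14.3 in control members, and from 0 to 51.0 with a median of 6.80 in the B-ALL environment. Its fold was -1.0 (-1.07 to -0.93). Mpo ran from 0 to 281 with a median of 18.1 in the control and from 0 to 75.1 with a median of 12.2 in the B-ALL environment, a fold of -0.44 (-0.50 to -0.39). Both genes were lower in the middle and at the top of the range. At the top, single control cells reached levels that no member of the B-ALL environment had. A UMI of Ctsg was found in 85.2% and 70.8% of thinned members, against 31.4% and 3.33% of thinned erythroid cells, which should lack it. For Mpo these shares were 91.6% and 86.8%, against 30.2% and 0.0%. Both genes were thus lower in erythroid cells of the B-ALL environment too, and the part of free RNA (RNA from outside the cell) was not tested.

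Elane gave opposite answers by sum and by cell. Its summed level was 553 and 775 CPM, a fold of 0.49 (0.39 to 0.59), but its median per 10000 UMIs was 1.82 in the control against 0.739 in the B-ALL environment. A UMI of Elane was found in 50.0% of thinned control members and 38.8% of thinned members of the B-ALL environment (78.4% and 54.8% unthinned), against 20.8% and 1.11% in thinned erythroid cells. A single cell held 19.5% of the gene's UMIs in the B-ALL environment and 7.93% in the control, and the highest cell had 233 against 88.0 per 10000 UMIs. The share in members and that in erythroid cells were thus both lower in the B-ALL environment, and the part of free RNA in the difference was not tested. With members limited to fewer than 2 monocyte genes the summed fold turned to -0.17.

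**Figure D4:**
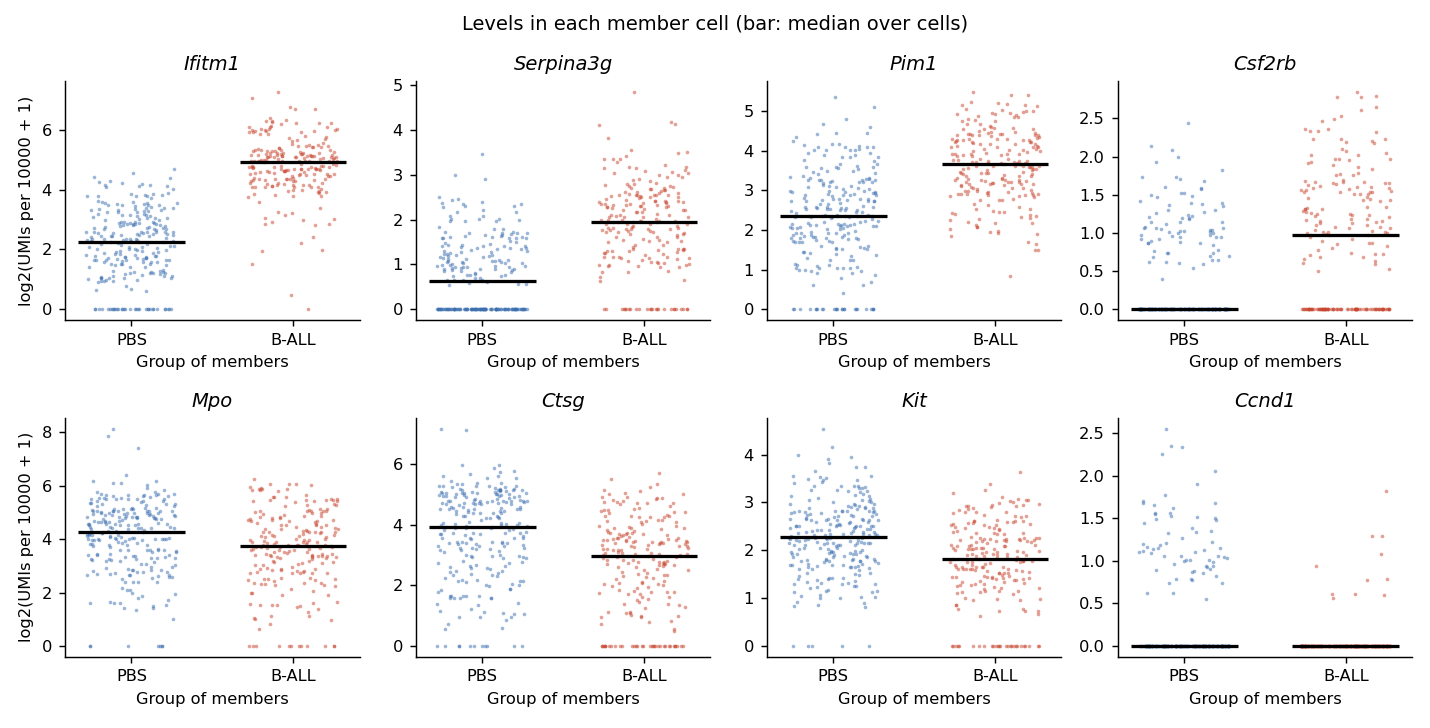
Per-cell levels (log2 of UMIs per 10000 + 1) of 8 genes, with each point 1 member and the bar at the median of each group. Ifitm1 and Pim1 have higher medians in the B-ALL environment, Ctsg and Kit lower ones, and the ranges of the groups overlap in each.

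The members ranged widely in granule content within each group. Mpo, Elane, Prtn3, Ctsg and Ms4a3 together ran from 2.45 to 516 per 10000 UMIs in control members with a median of 61.8, and from 0.388 to 539 with a median of 51.8 in the B-ALL environment. The 25% of members with the highest levels held 52.3% and 55.8% of this signal. Stem and multipotent genes together ran from 5.53 to 126 with a median of 44.8 in the control and from 9.71 to 216 with a median of 78.1 in the B-ALL environment. Across the members of a group the granule and stem sums had a Spearman rho of -0.34 (n = 250) and -0.39 (n = 219). The cells of a group are not independent samples, and a difference between its 2 unmarked samples could not be separated. Cells with more granule RNA thus tended to have a lower stem sum, weakly, in both groups. Ifitm1 alone, a gene of this sum, had medians of 3.74 and 29.4 per 10000 UMIs. The rho without Ifitm1 was not computed, and both sums are parts of the same total per cell.

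Stem and multipotent genes had 8 of 23 called higher and none lower, with a median of 0.26, and summed to 4382 and 7462 CPM. Ifitm1, an interferon-induced membrane protein that hematopoietic progenitors make without infection, accounted for most of the higher sum. It ran from 0 to 24.8 per 10000 UMIs with a median of 3.74 in control members, and from 0 to 153 with a median of 29.4 in the B-ALL environment. The median of the B-ALL environment lay above the highest control member. Its level was 445 and 2852 CPM, a fold of 2.68 (2.59 to 2.77), against 3.03 in neutrophil and 2.87 in monocyte progenitors. Ly6a, the stem cell antigen Sca-1, had 19 and 72 UMIs, a fold of 1.94 (1.20 to 2.75), or 0.81 in members with at least 6 other members as near neighbours. Genes that mark the stem cell state more strictly had smaller folds, with Hlf at 143 and 168 CPM and a fold of 0.23 (0.03 to 0.44), Mecom at 0.26 (-0.21 to 0.73) and Gata2 at 0.00 (-0.23 to 0.23). After thinning to 3070 UMIs the folds of Hlf and Mecom were -0.07 and -0.43. Fgd5, a gene of stem cells, had 2 UMIs in the control against 17 in the B-ALL environment, a fold of 3.11 (1.03 to 6.27).

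Adhesion genes went both ways. Selp had 25.2 and 100 CPM, a fold of 1.99 (1.59 to 2.41). Esam, an adhesion molecule of endothelium and stem cells, had 10 and 32 UMIs, a fold of 1.70 (0.64 to 2.89). Itgal, which encodes the integrin chain of LFA-1, had 123 and 54 UMIs, a fold of -1.17 (-1.66 to -0.70). Of 16 homing and adhesion genes tested, 4 were called higher and 1 lower.

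**Figure D5:**
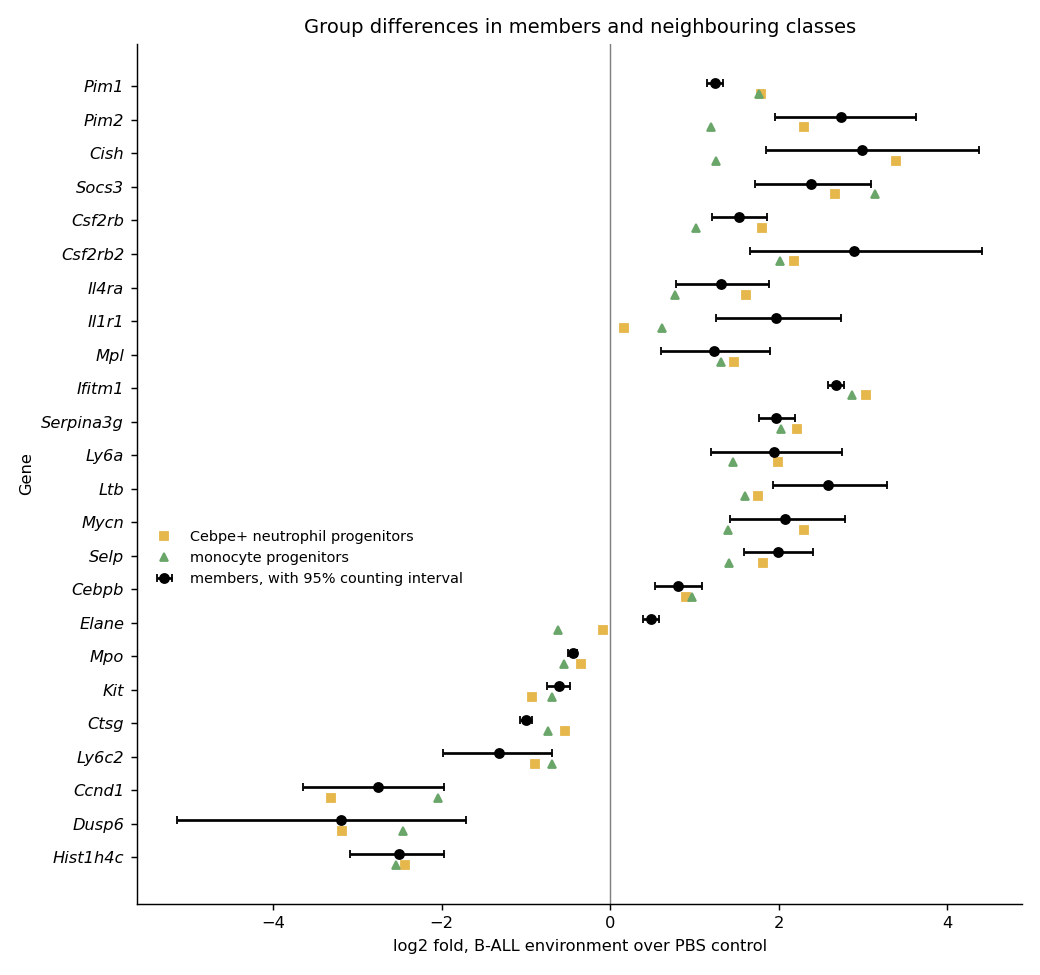
Log2 folds (B-ALL environment over PBS control) with exact 95% intervals for the members, beside the folds of neutrophil and monocyte progenitors. Pim2, Ifitm1 and Socs3 stand above 0 in each class, and Ccnd1 stands below 0 in each.

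Cell cycle genes differed by kind. Ccnd1, the cyclin that starts the cycle in response to growth factors, had 103 UMIs in control members against 15 in the B-ALL environment, or 40.0 and 5.90 CPM, a fold of -2.76 (-3.65 to -1.97). Ccnd2 and Ccnd3, its relatives, had folds of -0.32 (-0.48 to -0.17) and 0.48 (0.27 to 0.70). Cdk6, the partner kinase of these cyclins, had 907 and 1177 CPM, a fold of 0.38 (0.30 to 0.45), and the inhibitor Cdkn1a 19.8 and 38.6 CPM, a fold of 0.96 (0.46 to 1.48) that was 0.43 with at least 2 Cebpa UMIs required. The lower level was thus not shared by the 3 D cyclins.

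Of 30 S phase genes tested 1 was called higher and none lower, with a median of -0.02 that was 0.015 with plain library totals. This median depended on the members taken. With at least 6 other members as near neighbours 23 of the 30 were negative and 5 were called lower. The median was then -0.31, beside -0.24 for G2/M genes. With at least 2 Cebpa UMIs 19 were positive and 11 negative, with a median of 0.14. Of 30 G2/M genes 24 had a negative fold, none was called higher and 3 were called lower, with a median of -0.20, against -0.03 in neutrophil and 0.12 in monocyte progenitors. Among members of at least 10000 UMIs 27 of the 30 G2/M genes had a negative fold, 12 were called lower and the median was -0.43. UMIs of at least 2 G2/M genes were found in 95.2% of thinned control members (91.8% to 97.5%) and 89.0% of thinned members of the B-ALL environment (84.1% to 92.9%), or 99.2% and 96.8% unthinned. Mki67, the proliferation marker, had a fold of 0.21 (0.07 to 0.34), and Top2a, a DNA topoisomerase of dividing cells, one of -0.18 (-0.29 to -0.08). Most G2/M genes thus had small negative folds in members, with exceptions such as Mki67 by its summed level. By cell Mki67 was not higher in the middle of the range. Its median per 10000 UMIs was 0.683 in the control against 0.0 in the B-ALL environment. A UMI of it was found in 33.2% and 32.0% of thinned members.

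Replication-dependent histone genes were 10 of the 12 lowest folds. Of 51 tested, 46 were called lower and the median was -1.45, and their sum was 6407 CPM in control members and 2900 CPM in the B-ALL environment. Hist1h4c had 190 and 33 UMIs, a fold of -2.51 (-3.09 to -1.97). Most messages of these genes lack the poly(A) tail by which the kit captures RNA. AY036118, a transcript that overlaps ribosomal RNA, had 653 and 113 CPM, a fold of -2.54 (-2.72 to -2.36), and was lower by 2.52 in neutrophil and 2.24 in monocyte progenitors. Lars2, a symbol that also collects ribosomal RNA reads, had a fold of -1.34 (-1.74 to -0.96). The histone median was -1.16 in neutrophil and -1.33 in monocyte progenitors, so these folds were shared by the classes, and the part of RNA capture in them was not tested.

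Mitochondrial genes were divided by genome. Of 36 nuclear genes of oxidative phosphorylation 35 had a negative fold, 4 were called lower and none higher, with a median of -0.38, against -0.10 in neutrophil and -0.07 in monocyte progenitors and -0.28 in all other cells. Cox7b, a subunit of cytochrome oxidase, had 622 and 352 CPM, a fold of -0.82 (-0.94 to -0.70), and Ndufa4 had 1773 and 1045 CPM, a fold of -0.76 (-0.83 to -0.69). Of the 13 mitochondrially encoded genes 4 were called higher and 2 lower, with a median of 0.42. The share of mitochondrial RNA differs between the groups over all cells as well, as 3.56% and 5.13%, and its part in the nuclear folds was not tested.

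Genes of the other lineages that the sort could hold were also followed. Of 15 erythroid genes 11 were called lower and none higher, with a median of -1.47, and their sum was 782 CPM in control members and 526 CPM in the B-ALL environment. Klf1, the erythroid master regulator, had 41 and 13 UMIs in members, of which 1 cell held 19.5% and 53.8%. Its fold was -1.64 (-2.66 to -0.71). The same sum in all other cells was 2530 and 1508 CPM, so erythroid RNA was lower outside the members too, and the part of free RNA in these folds was not tested. Restricted to members with at least 6 other members among their 30 nearest neighbours on the map, 6 erythroid genes were tested, of which 2 were called higher and 2 lower, and Klf1 stood at 0.61. Of 9 megakaryocyte genes 3 were called higher and none lower, with a median of 0.29. Among 3 T and natural killer cell genes 2 were called higher, though that list summed to 338 CPM in control members and 302 CPM in the B-ALL environment. Among 7 lymphoid-primed genes none was called higher and 1 lower. Of 9 basophil and mast cell genes 1 was called higher and 2 lower. Cpa3 had 362 and 195 CPM, a fold of -0.90 (-1.06 to -0.74), and Mcpt8, a basophil protease, one of -0.77 (-1.14 to -0.40).

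Monocyte genes outside the rule had 2 of 12 called higher and 3 lower, with a median of -0.05. Fcgr3, an Fc receptor of myeloid cells, had 53 and 8 UMIs, a fold of -2.71 (-3.99 to -1.63). Ly6c2 had 76 and 30 UMIs, a fold of -1.32 (-1.98 to -0.69), with 35.5% and 40.0% of them in 1 cell. Itgam, which encodes the integrin chain CD11b, had 47 and 88 UMIs, a fold of 0.93 (0.40 to 1.47). The list as a whole had no common direction. Genes of B cells summed to 83.1 and 69.0 CPM in members, and Igkc, the light chain of mature B cells, had no UMI in either group.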

How the data were processed

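Droplet RNA data of KIT+ marrow cells were analysed. Raw UMI counts per gene and cell were deposited by the authors without normalization, together with each cell's UMI total and UMAP coordinates (a score without unit), and other values used as deposited. Per the submitters' processing notes, Cell Ranger 4, Seurat 4.0.1 and mm10 were used. Filters, the equal number of 5882 cells per group and strand handling are not given in the sources used here. The matrix holds 11764 cells and 13978 genes, with column sums that matched the deposited totals for 100% of cells. There were 190 cells of the B-ALL environment under 3070 UMIs.

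UMIs were summed over members per group, filtered with filterByExpr and brought to CPM by TMM factors (edgeR 4.0.16 under R 4.3.3, no edgeR test). Folds have exact conditional 95% Poisson intervals and shares exact Clopper-Pearson intervals (scipy 1.17.1), and a gene past 1.5-fold was called. Levels by count of monocyte genes are CPM without TMM factors. Neutrophil progenitors had at least 1 Cebpe UMI and under 3 of the 7 monocyte genes, and monocyte progenitors at least 3 and no Cebpe. Both lacked Dntt, Ms4a2 and Pf4. The scripts were checked on simulated data. Members and the 31 gene lists were chosen with earlier results of these data known.

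Named genes were those of the rule and Cxcr2, Ptprc, Kit, Ly6a, Socs2 and Cish. Among genes whose mean reached 20 CPM they were also the 12 highest and 12 lowest folds, and the 15 highest and 8 lowest against all other cells. From each list described, up to 6 by size of fold and any whose role is given were named. DESeq2 1.42.0 gave size factors for 1 alternative. No column of another sample was left unused.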

Additional observations from a re-analysis of the deposited data

How the results depend on the processing

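No paired analysis was possible because no replicate number is attached to a cell, so the replicate block and leaving out each replicate were not run. The share of members in the control and the B-ALL environment was 3.13% and 2.11% with cells thinned to 3070 UMIs (ratio 0.674), 3.59% and 3.82% among cells of at least 10000 UMIs, 1.97% and 1.77% with at least 2 Cebpa UMIs, 2.91% and 2.28% with at least 2 Ccl9 UMIs, 8.28% and 8.24% with no Ccl9 criterion, and 2.55% and 2.53% with fewer than 2 monocyte genes. Without the filter on low counts 1898 genes were called higher and 1497 lower. Against neutrophil progenitors 964 genes were called higher with plain library totals and 334 higher and 291 lower after thinning, and against monocyte progenitors 620 were called higher after thinning. Plain library totals moved the S phase median from -0.02 to 0.015, the G2/M median to -0.17 and the median of all genes to 0.04. The higher share of all calls was 58.7% as reported, 64.6% with plain library totals and 52.0% after thinning. Of the 1519 calls, 491 were also made after thinning and 620 in members with at least 6 member neighbours, alternatives that hold fewer counts or cells. Among 79 named genes, 55 of them called, 48 to 55 calls stayed past 1.5-fold in the same direction. Among the called genes direction turned for Ccr2 (0.49 with fewer than 2 monocyte genes), Ifit1 (0.32 among members of at least 10000 UMIs, 1.03 with at least 6 member neighbours) and Klf1 (0.61 with at least 6 member neighbours), and the cause was not tested. With at least 6 member neighbours Pim2 was at 5.16, Cish at 4.42, Mycn at 3.20, Vldlr at 2.59, Wfdc17 at 1.37, Il4ra at 0.70, Cpa3 at -1.53 and Ccnd1 at -3.74. Socs3 was at 4.04 with fewer than 2 monocyte genes, and Il1r1 at 3.01 among members of at least 10000 UMIs. Leaving out the deepest 5% of members and the neighbour criterion were added after the data were seen.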

Other observations

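Several genes among the highest folds belong to no list described above. Wfdc17, a secreted protease inhibitor of activated myeloid cells, had 41.1 CPM in control members and 198 CPM in the B-ALL environment, which is 2.26 on the log2 scale (1.96 to 2.58). Ffar2 had 45.4 and 169 CPM, a fold of 1.90 (1.60 to 2.21), and Vldlr, a lipoprotein receptor, 22.1 and 71.2 CPM, a fold of 1.69 (1.25 to 2.14). S100a6, a calcium-binding protein, had 37 and 109 UMIs, a fold of 1.58 (1.03 to 2.16).

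The following lists had few calls in members. Of 19 glycolysis genes none was called higher and 1 lower, Hk3, the hexokinase of myeloid cells, which had 87.7 and 40.5 CPM and a fold of -1.11 (-1.46 to -0.77). None of 16 genes of the unfolded protein response was called in either direction, with a median of -0.07. Of 22 MYC targets and ribosome biogenesis genes 1 was called higher and none lower.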
